A study of Rattus norvegicus with 16 samples.

Results

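The genes described here are those of the proteins of the cytosolic ribosome, chosen by name: every gene whose symbol begins with Rps, Rpl or Rplp followed by a digit. Of the 17085 genes in the table, 114 matched. They fall into 68 core ribosomal proteins (26 of the small subunit, 39 of the large subunit and 3 of the stalk), 18 names of paralogs, 10 names of S6 kinases and 18 others, 15 of which are pseudogene names. The S6 kinase names carry the prefix after kinases of a ribosomal protein, which need not be the target of each of them, and none is a part of the ribosome. Their values are kept apart. RNA sequencing of whole tissue from the infarct zone of rat hearts gave 16 libraries, 4 in each of 4 groups. MI_stiff and MI_soft rats had the left anterior descending coronary artery tied off and were treated with a stiff or a soft hydrogel, MI rats had the ligation without a gel, and Sham rats were the surgical controls. Strain, age, sex, gel composition and time of sampling are not given in the labels. The RNA extraction label names MI/R, a usual abbreviation for infarction with reperfusion, so whether the artery was reopened is not known here.

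As background, each ribosome holds a single copy of nearly all of its proteins, and their genes are therefore usually expressed together and at high levels in any growing cell. Their messenger RNAs begin, in mammals, with a cytosine followed by a run of pyrimidines, the terminal oligopyrimidine or TOP motif, through which mTORC1 signalling and the RNA-binding protein LARP1 control how much of them is translated. The adult heart is known for a ribosomal protein of its own: Rpl3l, a paralog found in cardiac and skeletal muscle, takes the place of Rpl3 in a part of the ribosomes there.

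The start of the transcript is where a TOP motif lies, and it is shown for members named in the results. Each window runs from 10 bases before the annotated start to 15 bases after it, on the coding strand, from RefSeq (GRCr8, another build than the rn7 of the counts). Capitals mark a C followed by at least 5 pyrimidines (C or T).
Rpl3, chr7:113507976-113508000 (-): gcctgctcgatctctatcggcggcg
Rpl3l, chr10:14258436-14258460 (+): ctggtgcctggtggggaggtccctt
Rplp0, chr12:46718376-46718400 (-): caccgcaCTTCTCTCgccaggcgtc
Rplp1, chr8:71290858-71290882 (-): cgcatgtgatCCTTTCCTCagctgc
Rps12, chr1:23500065-23500089 (+): gaagcccagcagagcgcttaaatac
Rps24, chr16:96507-96531 (+): ggtCCTCTTTTCCTCCTTTacagct
Rps27, chr2:177964592-177964616 (-): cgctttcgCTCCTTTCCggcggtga
Rpl34, chr2:221962269-221962293 (-): tCCTTTTCCTCTTCCggggacggtg

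A RefSeq window was found for 55 of the 68 core genes, taking the first one listed for a symbol. A C with at least 5 pyrimidines lay in the 25 bases around the start of 37 of them (67.3%), against 17% of all 27456 windows. A C exactly at the annotated start followed by 4 pyrimidines was present in 22 (40.0%), against 2.63% of all windows and in 0 of the 10 S6 kinase windows; these searches were on the coding strand, and a run can meet both. In the full window of 250 bases before to 50 after the start, CCGGAAG on either strand, the core of an ETS-type motif, was found in 32.7% of the core genes and 9.22% of all windows. AAGATGGC on either strand, the core of the YY1 motif, was found in 7.27%, against 3.44%, and CACGTG in 7.27%, against 6.65%. TATAAA on the coding strand was found in 10.9%, against 9.08%. Genes that passed the filter on low counts are a nearer background. Their windows held CCGGAAG in 17.5%, AAGATGGC in 5.29%, CACGTG in 9.22% and TATAAA in 4.54%. For the tested core genes the shares were 28.6%, 6.12%, 8.16% and 10.2%. These are matches of letters in annotated windows, and the windows printed for Rpl3, Rpl3l and Rps12 hold no such pyrimidine run around the annotated start.

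Before the comparisons, the libraries themselves have to be described. Totals lay between 10940685 and 14456186 expected counts, and 0 of the 16 columns repeated another. A count was recorded for 10470 genes in MI 2, 10958 in MI 3, 11283 in MI 4 and 11785 in MI_soft 4, and for 12019 to 12820 in the other 12 libraries. Some results are therefore also given without those 4 libraries. This leaves MI 1 as the lone library of its group, assumed to vary like the others. Of the 114 members 90 passed the filter on low counts: 62 core proteins, 11 paralogs, 9 S6 kinases and 8 others. Another 11 members, the core proteins Rpl35a, Rpl36, Rpl38, Rpl39 and Rplp2 among them, were listed at 0 in every library, and Rpl37 had 3 counts in all. These abundant proteins are needed by every cell, so a listed 0 is not read here as absence of the transcript. The core proteins Rpl7a, Rpl8, Rpl10, Rpl13a, Rps6, Rps9, Rps21 and Rps26 were not analysed here.

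The family made up a larger part of the transcript pool in every infarct library than in any Sham library. The 68 core genes summed to 4.49%, 3.37%, 3.4% and 5.21% of all TPM (abundance corrected for gene length and sequencing depth) in MI_stiff, 4.71%, 5.02%, 4.73% and 5.5% in MI_soft, 6.07%, 6.01%, 5.06% and 6.38% in MI, and 2.08%, 1.65%, 2.48% and 1.95% in Sham. The means were 4.12% ± 0.896 in MI_stiff, 4.99% ± 0.368 in MI_soft, 5.88% ± 0.57 in MI and 2.04% ± 0.344 in Sham (SD, n = 4 each). MI_stiff reached down to 3.37% and did not overlap with Sham, but it overlapped with MI_soft and, through MI_stiff 4, with MI. Mitochondrially encoded genes took 25.1% to 50.5% of the counts of a library. With those genes left out of the total, the share was 8.83% ± 1.03 in MI_stiff, 9.99% ± 1.22 in MI_soft, 12.5% ± 2.25 in MI and 4.69% ± 0.148 in Sham, and the 4 Sham libraries again lay lowest. Small-subunit proteins supplied 46.1% to 52.1% of the family's TPM in all 16 libraries, so both subunits held a like share of it in every group.

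**Figure D1:**
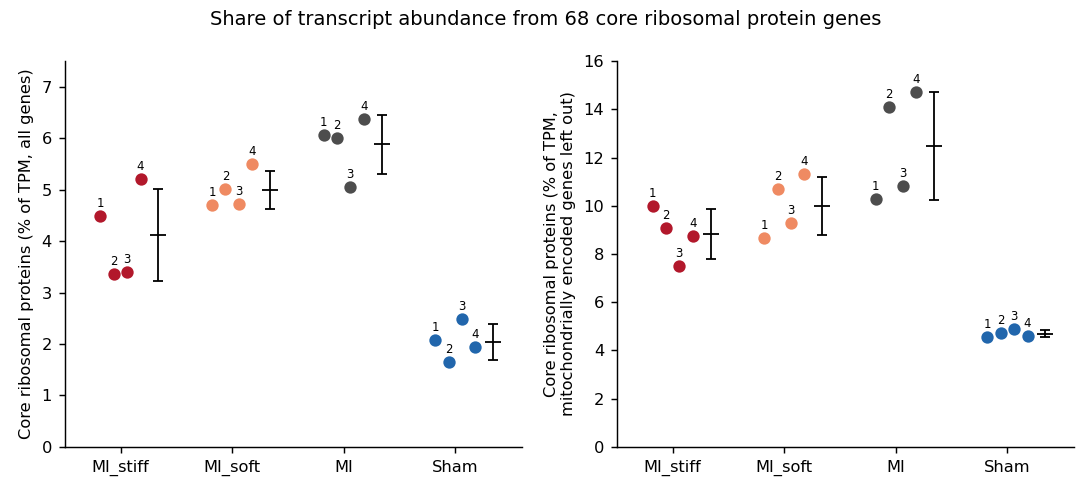
Share of TPM from the 68 core genes in each library (numbered points), of all genes (left) and with mitochondrially encoded genes left out (right); bars are the mean and SD of 4 libraries. All 12 infarct libraries lie above all 4 Sham libraries, and the left panel runs from 1.65% in Sham 2 to 6.38% in MI 4.

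Members differed widely in level. Rps29, a small zinc-binding protein of the small subunit, had the highest mean over the 16 libraries (4150 TPM), followed by Rps27 (2800), Rps15 (1670), Rpl34 (1580) and Rps15a (1510). The lowest of the tested core genes were Rps13 (15.9 TPM), Rpl36a (17.3), Rps4y2 (20.1), Rpl37a (21.9) and Rpl41 (39.5). Rpl32 itself had 50.2 TPM and the pseudogene name Rpl32-ps3 873 TPM, and how reads were divided between such similar names was not tested, so the level of a single name is uncertain. Effective gene length, read from counts per TPM, was 0.0253 of the median gene for Rps29 and 1.0 of it for Rpl15, the range of the core genes. With such short genes, TPM gives them a larger share than counts do: the core genes took 2.12% to 2.76% of the counts in MI and 0.649% to 0.857% in Sham.

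Ligation alone, MI against Sham, moved nearly the whole family upward. Of the 62 tested core genes 53 rose and 0 fell at an adjusted p under 0.05 (quasi-likelihood test of edgeR, p-values adjusted over all 11376 genes by the Benjamini-Hochberg method). Among all genes 20.2% rose and 16.4% fell by the same rule. With DESeq2 53 rose and 0 fell (20.6% of all genes rose), and 0 core genes were lower even at an unadjusted p under 0.05 (21.3% of all genes). All 62 differences were above 0, with a median of 1.49 on the log2 scale, against 0.06 over all genes. In 48 of the 62 the 4 MI libraries lay above all 4 Sham libraries, a separation in this direction found in 17.7% of all genes. Both subunits and the stalk took part: 22 of 26 small-subunit genes, 29 of 34 large-subunit genes and both tested stalk genes rose, with medians of 1.48 for the small subunit and 1.51 for the large subunit and stalk together. Without the 4 libraries with fewest genes detected, 45 core genes rose, 0 fell and the median was 1.05, where 16% of all genes rose.

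**Figure D2:**
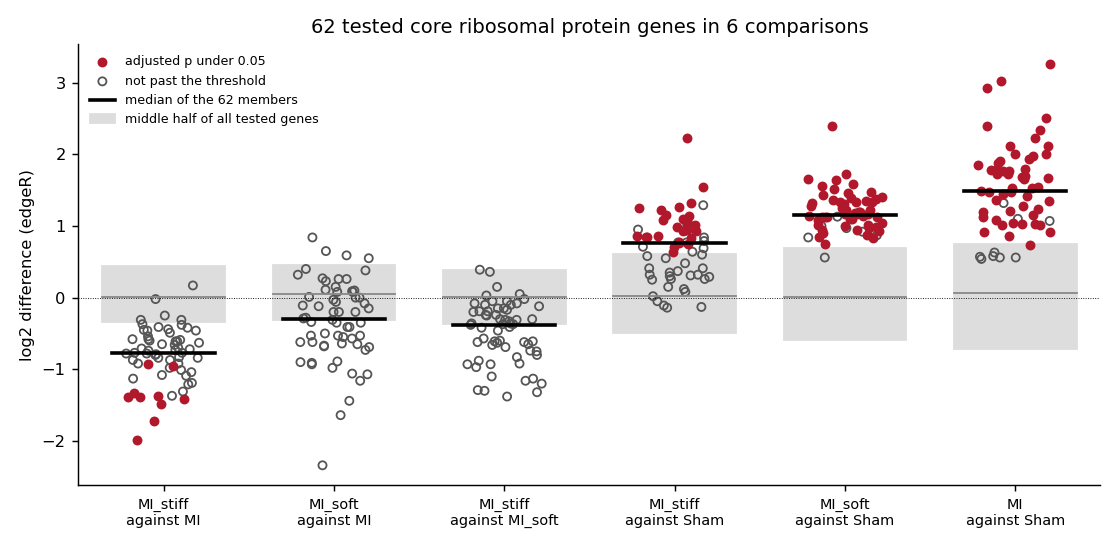
log2 differences of the 62 tested core genes (points; filled where the adjusted p was under 0.05) in the 6 comparisons, with their median (black bar) and the median and middle range of all 11376 genes (grey). The median is 1.49 for MI against Sham, 1.16 for MI_soft against Sham and 0.77 for MI_stiff against Sham, and below 0 in the comparisons of either gel group with MI and of MI_stiff with MI_soft.

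The largest rises of MI over Sham were those of Rplp1, a stalk protein that with Rplp2 recruits elongation factors, Rps12 and Rpl3. Rplp1 had 92, 395, 384 and 445 TPM in MI 1 to 4, against 34.2, 48.4, 35.4 and 26 TPM in Sham. The difference was 3.26 ± 0.49 on the log2 scale (SE, adjusted p = 8.07e-05, edgeR). MI 1 stood far below the other MI libraries and nearer to the gel groups, which held 68.2 to 83.2 TPM in MI_soft and 59.9 to 191 TPM in MI_stiff. Without the libraries with fewest genes detected, the Rplp1 difference was 0.76 with an adjusted p of 0.183, no longer past the threshold. Rps12, a small-subunit protein, had 808, 1200, 1060 and 1950 TPM in MI, against 190, 100, 217 and 161 TPM in Sham, with no overlap. It rose by 3.03 ± 0.36 (adjusted p = 8.09e-06), and the difference lay between 1.77 and 3.25 over 25 other ways of processing, all past the threshold. Rps24, a small-subunit protein known from Diamond-Blackfan anaemia in humans, had 672, 1110, 1360 and 1570 TPM in MI, against 252, 113, 324 and 205 TPM in Sham. It rose by 2.51 ± 0.33 (adjusted p = 2.49e-05), and MI 1 was again the lowest of its group. The scaffold of the stalk, Rplp0, which is often used as a reference gene in qPCR, had 2210, 2000, 1290 and 1780 TPM in MI, against 720, 572, 839 and 672 TPM in Sham, and rose by 1.35 ± 0.26 (adjusted p = 0.000868). Every MI library lay above every Sham library for Rplp0.

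Rps4y2, Rps28, Rpl21, Rpl27, Rpl30, Rpl32 and Rpl41 were among the 9 core genes that did not pass in MI against Sham, where the difference of Rpl30 was 1.32. For Rpl30 and Rpl41 a single MI library stood low. Rpl30, a large-subunit protein, had 14.9, 455, 425 and 448 TPM in MI and 5.89, 132, 334 and 134 TPM in Sham, and MI_soft 4 was also low at 24 TPM. Rpl41, the shortest of the ribosomal proteins, had 1.59 TPM in MI 3 and 29.2 to 90.5 TPM in the other MI libraries.

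**Figure D3:**
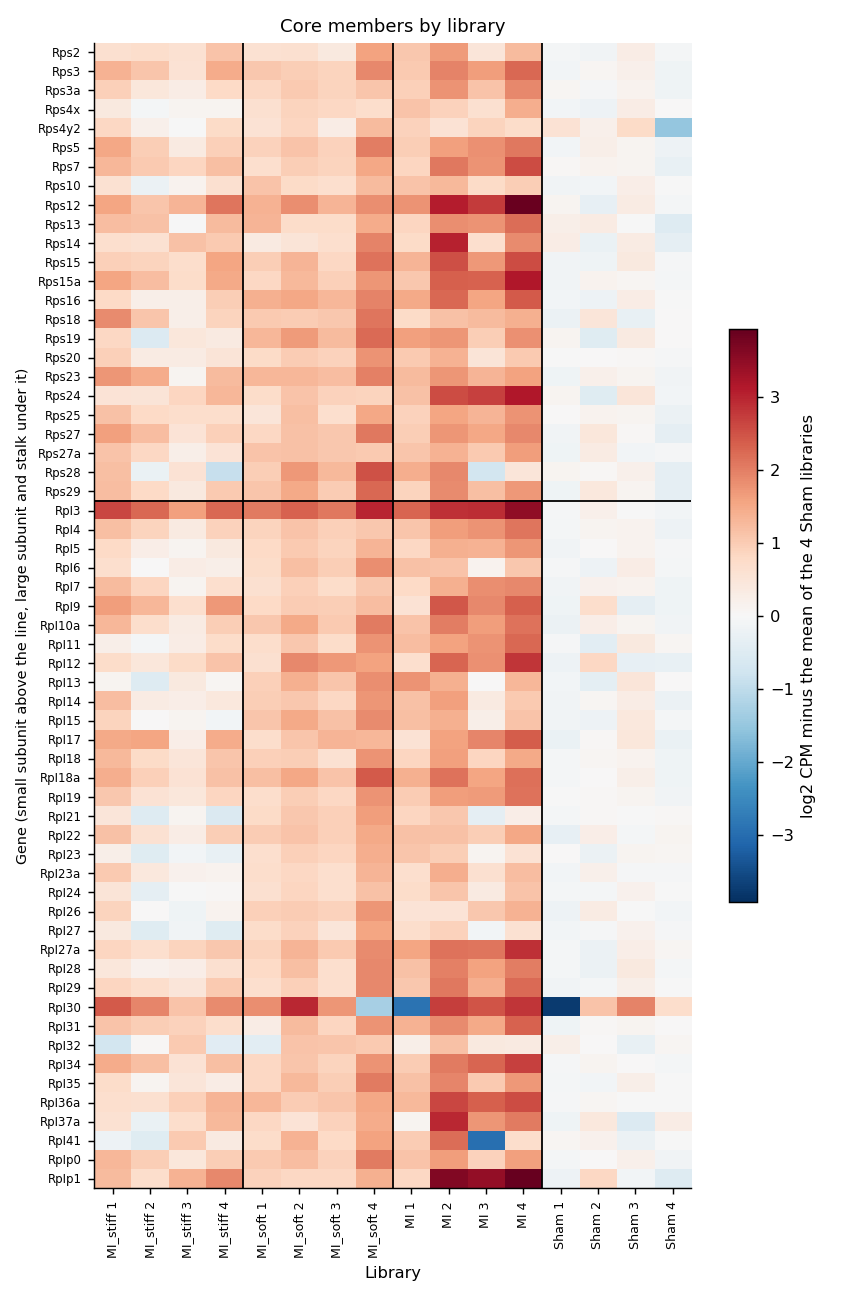
log2 CPM of tested core genes reported here (rows) in each library (columns), less the mean of the 4 Sham libraries (colour scale). Red prevails in the 12 infarct libraries. The group difference from Sham is most even from gene to gene in MI_soft, though MI_soft 4 is the highest MI_soft library for most genes. Rplp1, Rps12 and Rps24 are deepest in MI 2 to 4, and Rpl30 is low in MI 1, MI_soft 4 and Sham 1.

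Rpl3 and Rpl3l, the general and the muscle form of the same large-subunit protein near the peptidyl transferase centre, moved in opposite directions after ligation. Rpl3 had 584, 483, 372 and 691 TPM in MI_stiff, 483, 501, 497 and 583 TPM in MI_soft and 666, 628, 689 and 875 TPM in MI, against 98.3, 87.2, 96.1 and 92.1 TPM in Sham. Rpl3l had 58.4, 40.2, 83.8 and 94.9 TPM in MI_stiff, 71.7, 63.8, 61.7 and 87.1 TPM in MI_soft and 89.5, 45.5, 85.4 and 61.6 TPM in MI, against 152, 96.7, 199 and 134 TPM in Sham. All infarct libraries were above all Sham libraries for Rpl3 and below all of them for Rpl3l. Rpl3 rose by 2.23 ± 0.28 in MI_stiff (adjusted p = 3.38e-05), by 2.40 ± 0.28 in MI_soft (adjusted p = 1.28e-05) and by 2.93 ± 0.29 in MI (adjusted p = 1.5e-06, edgeR, log2 scale ± SE, each against Sham). It was the largest rise of a core gene in both gel groups. Rpl3l fell by 1.37 ± 0.27 in MI_stiff (adjusted p = 0.00152), by 1.06 ± 0.27 in MI_soft (adjusted p = 0.0076) and by 1.09 ± 0.27 in MI (adjusted p = 0.0046).

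Rpl3l thus supplied 9.09%, 7.69%, 18.4% and 12.1% of the summed TPM of the pair in MI_stiff, 12.9%, 11.3%, 11% and 13% in MI_soft, 11.8%, 6.76%, 11% and 6.58% in MI, and 60.7%, 52.6%, 67.4% and 59.3% in Sham. The Sham values lay far from all others, and the 3 infarct groups overlapped with each other. Both genes kept their direction and their calls against Sham in each of 25 other ways of processing, which gave 2.07 to 3.06 for Rpl3 and -1.45 to -0.91 for Rpl3l over the 3 comparisons. These comparisons share the Sham libraries. Neither gene passed the test between infarct groups by edgeR: in MI_stiff against MI, Rpl3 differed by -0.71 ± 0.27 (adjusted p = 0.199) and Rpl3l by -0.28 ± 0.27 (adjusted p = 0.614).

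**Figure D4:**
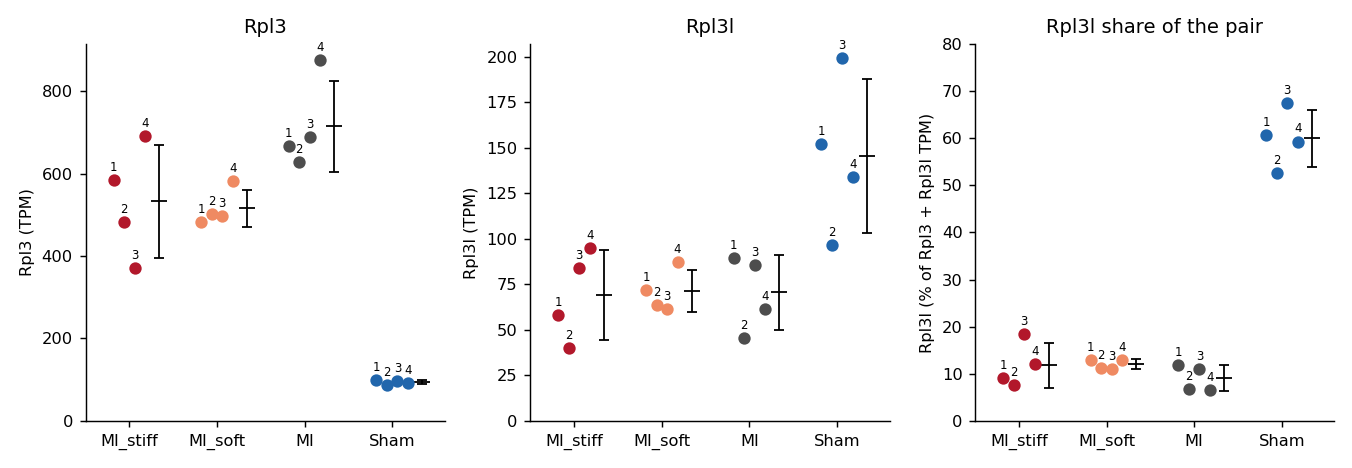
TPM of Rpl3 (left) and Rpl3l (middle) and the share of Rpl3l in their sum (right) in each library (numbered points), with the mean and SD of 4 libraries. The Rpl3l share is 52.6% to 67.4% in Sham and 6.58% to 18.4% in the 12 infarct libraries.

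Markers of cell types also differed between the groups, beside all of the above. Of 7 cardiomyocyte markers 6 fell in MI against Sham, and their summed level was 21160 to 26130 CPM (counts scaled to a common total) in MI_stiff, 22230 to 37020 in MI_soft, 15720 to 26140 in MI and 62060 to 72850 in Sham. All 5 fibroblast markers rose in MI, with sums of 9123 to 14040 CPM in MI_stiff, 11180 to 15450 in MI_soft, 11000 to 18420 in MI and 2137 to 2808 in Sham. All 5 macrophage markers rose too, with sums of 473.2 to 2232 CPM in MI_stiff, 1328 to 4292 in MI_soft, 375.1 to 1118 in MI and 104.1 to 135.3 in Sham. Of 5 lymphocyte markers 4 rose in MI_soft against Sham. Of 4 skeletal muscle markers Myl1, Ca3 and Tnnt3 rose and Ckm fell in MI. Only 1 of 3 endothelial markers was tested, and it fell. In whole tissue fewer cells of a type and less RNA per cell cannot be told apart, and the part of these shifts in the family's rise was not tested.

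Both gel groups stood above Sham as well. In MI_soft 53 of the 62 core genes rose and 0 fell (16.4% of all genes rose and 9.71% fell), with a median of 1.16 and a range of 0.56 to 2.40, and 58 had all MI_soft libraries above all Sham libraries (20.9% of all genes). The genes moved by more even amounts than in MI: the SD of their differences was 0.29 in MI_soft and 0.61 in MI. Among the called names Rpl3 was followed by the pseudogene names Rpl26-ps2 (1.80) and Rpl34-ps1 (1.75), the kinase Rps6ka1 (1.76) and the small-subunit protein Rps28 (1.72 ± 0.50, adjusted p = 0.0174). Rplp1 (0.92 ± 0.46, adjusted p = 0.143) and Rps24 (0.87 ± 0.32, adjusted p = 0.0503), which led in MI, did not pass in MI_soft. MI_soft 4 was the highest MI_soft library for 54 of the 62 core genes.

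In MI_stiff 28 core genes rose against Sham and 0 fell, where 12.7% of all genes rose and 8.44% fell, and 26 had no overlap between the groups (19.3% of all genes). The median was 0.77 and the range -0.14 to 2.23. The rise covered 13 of 26 small-subunit genes, 14 of 34 large-subunit genes and Rplp0 of the stalk (0.94 ± 0.26, adjusted p = 0.0163). Rpl3 led, followed by Rps12 (1.54 ± 0.34, adjusted p = 0.00341), Rpl9 (1.32 ± 0.34, adjusted p = 0.00982), a large-subunit protein, and Rps15a (1.27 ± 0.33, adjusted p = 0.0106). The number of all members called in this comparison, 34 (21.2% of all genes were called in either direction), was 17 without MI_stiff 1, 18 without Sham 1, 19 without MI_stiff 4 and 20 without Sham 4. These are 18.9% to 22.2% of the tested members, against 15.1% to 16.2% of all genes under the same omissions. It was 51 when libraries were scaled by their totals, which is 56.7% of the tested members, against 23.3% of all genes. That scaling called 20.6% of all genes as higher and 2.63% as lower. It also moved the median of all genes to 0.35 and that of the core genes to 1.10.

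Adding a gel to the ligation, the question of MI_soft or MI_stiff against MI, gave smaller differences. In MI_soft against MI 0 members passed by edgeR (0.0264% of all genes were lower and 0 higher), with 18 core genes lower and 1 higher at an unadjusted p under 0.05 (7.53% and 7.95% of all genes). DESeq2 called 10 of the 90 tested members, all lower, where it called 2.58% of all genes and 1.39% as lower. The core median was -0.30, with 44 of 62 differences below 0. Without the 4 libraries with fewest genes detected it was -0.07, with MI 1 as the lone MI library. Leaving out MI 1 gave 16 members, all lower, which is 17.8% of the tested members, but 13.1% of all genes were then called too, 5.17% as lower. Rplp1 differed most, by -2.34 ± 0.47 (adjusted p = 0.0894), the 4 MI_soft libraries at 20.5 to 30.4 CPM and the MI libraries at 20.4, 146, 127 and 177 CPM. MI 1 lay just under the lowest MI_soft library.

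In MI_stiff against MI 61 of the 62 core differences were below 0, with a median of -0.77, against 0.01 over all genes. Of these 10 fell and 0 rose by edgeR, where 0.694% of all genes fell and 0.492% rose, and with DESeq2 26 fell and 0 rose (2.44% and 2.68% of all genes). At an unadjusted p under 0.05, 42 were lower and 0 higher (9.01% and 8.03% of all genes). In 11 core genes the MI_stiff libraries lay below all MI libraries, as in 3.9% of all genes. The called genes were Rplp1 (-1.98), Rps24 (-1.72), Rps12 (-1.49), Rpl11 (-1.42), Rps16 (-1.39), Rpl36a (-1.39), Rpl27a (-1.37), Rpl28 (-1.33), Rpl5 (-0.95) and Rps4x (-0.92); Rpl36al, whose counts equal those of Rpl36a, made 11 members. Rpl11 and Rpl5 bind the 5S ribosomal RNA and, outside the ribosome, the p53 regulator MDM2. Rpl11 had 139, 114, 147 and 200 CPM in MI_stiff, against 277, 354, 407 and 569 CPM in MI, with no overlap (-1.42 ± 0.28, adjusted p = 0.025, edgeR). Rps16, a small-subunit protein, had 294, 203, 204 and 334 CPM in MI_stiff, against 483, 816, 497 and 914 CPM in MI, again with no overlap (-1.39 ± 0.25, adjusted p = 0.0184). Rps24 had 68.5, 66.4, 84.8 and 117 CPM in MI_stiff, against 105, 282, 303 and 420 CPM in MI, where MI 1 lay below MI_stiff 4.

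These calls were few and depended on single libraries. The 11 members became 0 without MI 2, without MI 4, without MI_stiff 2 or without MI_stiff 3, and 3 without MI_stiff 1 or MI_stiff 4. They became 18 without MI 3, 29 without MI_soft 4 and 32 without MI 1, 31 of these lower. Calls over all genes grew under the same omissions, to 1.65% without MI 3, 4.62% without MI_soft 4 and 10.9% without MI 1, against 1.19% with all libraries. Of the tested members 20% were called without MI 3, 32.2% without MI_soft 4 and 35.6% without MI 1, against 12.2% with all libraries. Leaving out a library of another group, MI_soft 1, 2 or 3 or Sham 2 or 3, left 6, and leaving out Sham 1 or Sham 4 left 5. Over all genes, each omission that left 6 members or fewer called 0.0953% to 0.511%. Without the 4 libraries with fewest genes detected 3 members were called (3.33% of those tested, against 1.78% of all genes) and the core median was -0.28. Rplp1 then differed by 0.55 (adjusted p = 0.516), the opposite direction. MI 1 was the lowest MI library for 38 of the 62 core genes, and MI 4 the highest for 36.

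Between the gels, MI_stiff against MI_soft, 57 of 62 core differences were below 0, with a median of -0.38, and 0 members passed by edgeR, where 0.0615% of all genes rose and 0.0352% fell, 0.0967% in all. At an unadjusted p under 0.05, 22 core genes were lower and 0 higher (9.19% and 5.14% of all genes), and 15 had MI_stiff below MI_soft in all libraries (6.87% of all genes). DESeq2 called 16 members, 15 of them lower, which is 17.8% of the tested members, against 2.44% of all genes. The edgeR count was 1 without MI 1, 4 without MI 3 and 9, with 8 lower, without the 4 libraries with fewest genes detected, settings that called 0.477%, 0.494% and 2.01% of all genes. The core differences farthest below 0 were those of Rps28 (-1.38 ± 0.50, adjusted p = 0.225) and Rps19 (-1.32 ± 0.29, adjusted p = 0.0745). Rps19, the protein most often mutated in human Diamond-Blackfan anaemia, had 211, 83.7, 206 and 218 TPM in MI_stiff, against 367, 409, 346 and 430 TPM in MI_soft, with no overlap. A difference that misses the threshold does not show that the gels left these genes alike.

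The paralogs did not move as a group. Of the 11 tested, 4 rose and 1, Rpl3l, fell in MI against Sham (36.4% and 9.09%, against 20.2% and 16.4% of all genes). Of the 4, Rpl36al (2.34) and Rps19l2 (1.54) cannot be told from Rpl36a and Rps19 in these counts. Rps10l1 (1.28) likewise cannot be told from RGD1564698, whose counts and TPM are the same. Rpl22l2 (2.50 ± 0.96, adjusted p = 0.0496, edgeR) had only 79 counts in all libraries together. The Rpl22l2 call held in 9 of 25 other ways of processing, and among the libraries left out in turn it held only without MI 1, MI_soft 4 or Sham 2. Rpl22l1, the paralog of the large-subunit protein Rpl22, had 399, 300, 151 and 273 TPM in MI_stiff, 206, 214, 215 and 169 TPM in MI_soft and 177, 231, 217 and 224 TPM in MI, against 133, 150, 124 and 85.3 TPM in Sham. It did not pass in MI (0.78 ± 0.34, adjusted p = 0.0765) or in MI_stiff (0.96 ± 0.34, adjusted p = 0.0502), though in TPM every infarct library lay above every Sham library. Rpl22 itself rose in all 3 infarct groups, by 0.78 ± 0.22 in MI_stiff (adjusted p = 0.0156, edgeR), 1.14 ± 0.22 in MI_soft (adjusted p = 0.000997) and 1.20 ± 0.22 in MI (adjusted p = 0.000442). Rpl7l1 did not pass in MI against Sham (-0.36 ± 0.38, adjusted p = 0.489), whereas Rpl7 rose by 1.53 ± 0.26 (adjusted p = 0.000252). Rpl10l, known as a testis paralog in mice and humans, did not pass either (0.32 ± 0.34, adjusted p = 0.478). Rpl39l had 30 counts in all and was not tested. Of the X and Y names of Rps4, Rps4x rose in MI against Sham (1.04 ± 0.19, adjusted p = 0.000446) and Rps4y2 did not pass (0.56 ± 0.36, adjusted p = 0.234). Of the 8 other tested names 6 rose in MI, Rpl34-ps1 by the most (2.27 ± 0.55, adjusted p = 0.00407).

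**Figure D5:**
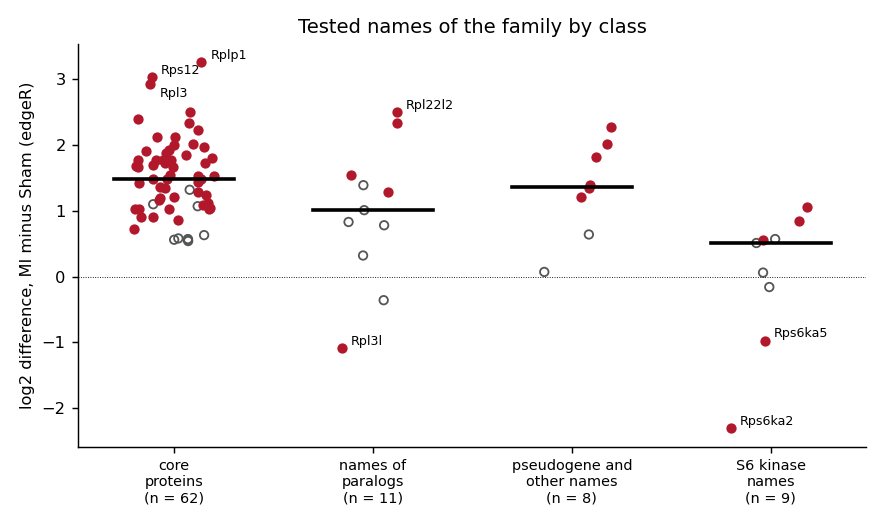
log2 difference of MI minus Sham for each tested name (points; filled where the adjusted p was under 0.05) by class, with the class median (bar). The core genes all lie above 0; Rpl3l, Rps6ka5 and Rps6ka2 are the filled points below it.

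Of the 9 tested S6 kinase names, which are not parts of the ribosome, 3 rose and 2 fell in MI against Sham. These are 33.3% and 22.2%, against 20.2% and 16.4% of all genes. Rps6ka1 (1.06 ± 0.39, adjusted p = 0.0397), Rps6ka4 (0.84 ± 0.29, adjusted p = 0.0296) and Rps6kc1 (0.55 ± 0.20, adjusted p = 0.0393) rose, while Rps6ka2 (-2.31 ± 0.71, adjusted p = 0.0169) and Rps6ka5 (-0.98 ± 0.24, adjusted p = 0.00422) fell. The calls of Rps6ka5 and Rps6ka2 held in 25 and 23 of 25 other ways of processing. Those of the rising genes held less often: Rps6ka4 in 18 (lost without MI 1, MI 2, Sham 1, Sham 2 or Sham 4), Rps6ka1 in 14 (lost without MI 1, MI 3, MI_soft 2, MI_stiff 4 or any Sham library) and Rps6kc1 in 11 (lost without MI 2, MI 3, MI_soft 1, MI_stiff 3, MI_stiff 4 or any Sham library), with adjusted p up to 0.118, 0.172 and 0.373. Rps6ka1 and Rps6ka2 encode kinases of the RSK family and Rps6ka4 and Rps6ka5 those of the MSK family, both activated by MAP kinases. Rps6ka5 had 2.51, 3.01, 2.40 and 3.79 TPM in MI_stiff, 2.40, 2.08, 2.84 and 1.10 TPM in MI_soft and 2.02, 1.81, 1.78 and 2.32 TPM in MI, against 3.74, 3.76, 3.96 and 3.79 TPM in Sham. It fell in all 3 groups, by 0.70 ± 0.24 in MI_stiff (adjusted p = 0.0438) and 1.04 ± 0.24 in MI_soft (adjusted p = 0.00405) as well. The MI_stiff call held in 10 of 25 other ways of processing and was lost without MI_soft 1 or 2, any MI_stiff library or any Sham library, with adjusted p up to 0.413. Rps6ka1 rose in both gel groups, by 1.41 ± 0.39 in MI_stiff (adjusted p = 0.0149) and 1.76 ± 0.39 in MI_soft (adjusted p = 0.00309). The kinases that act downstream of mTORC1 did not pass in MI against Sham: Rps6kb1 differed by 0.06 ± 0.25 (adjusted p = 0.873) and Rps6kb2 by 0.57 ± 0.34 (adjusted p = 0.199).

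Members with counts identical to those of another row in all 16 libraries call for caution, since a read that fits both copies can be divided between them. There were 18 such sets with a member. Those of Rps6ka6, Rpl38-ps2 and Rps27a-ps5 had 1 to 3 counts in all and unequal TPM, so their equal counts need not mark shared copies. Of the 62 tested core genes 13 were in a set: Rps7, Rps12, Rps13, Rps14, Rps19, Rps29, Rpl9, Rpl10a, Rpl22, Rpl23a, Rpl36a, Rpl37a and Rplp1. In MI against Sham, where 20.2% of all genes rose, all 13 rose, with a median of 1.88. Of the 49 others 40 rose, with a median of 1.36. The first set holds Rplp1 and Rps12, which had the largest differences of all, while Rpl3 is in the second. With 1 row kept for each set in the whole table, 50 of 59 core genes rose in MI (20% of all genes). Of the 49 tested core genes with a RefSeq window, the 34 with a pyrimidine run around the start had a median of 1.69 in MI against Sham and the 15 without it 1.28. Against Sham the median was 0.82 with the run and 0.32 without it in MI_stiff, and 1.13 with the run and 1.19 without it in MI_soft. These splits were not tested.

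Genes of the same machinery outside the name pattern were counted from lists. Rpsa and Fau encode further ribosomal proteins. In MI against Sham Rpsa rose by 1.69 ± 0.27 (adjusted p = 0.000166, edgeR) and Fau by 2.07 ± 0.32 (adjusted p = 0.000106). Rack1 was not analysed here. Of 22 translation factors and other mRNAs with a TOP motif, a list that includes Rpsa and Fau, 16 rose and 0 fell. Among all genes 20.2% rose and 16.4% fell. The median of the list was 0.95. Eef1a1, which brings aminoacyl-tRNA to the ribosome, rose by 2.08 ± 0.20 (adjusted p = 1.26e-06) and the poly(A)-binding protein gene Pabpc1 by 1.48 ± 0.19 (adjusted p = 1.49e-05), whereas Eef2, the translocation factor, differed by 0.47 ± 0.20 (adjusted p = 0.0754). The list had 5 genes higher in MI_stiff and 11 in MI_soft against Sham, where 12.7% and 16.4% of all genes rose. Naca, of the nascent chain complex, was its single call in MI_stiff against MI, where 0.694% of all genes fell. Naca fell by 1.06 ± 0.19 (adjusted p = 0.0184, edgeR). Of 26 genes of ribosome biogenesis 5 rose and 0 fell in MI against Sham, close to the 20.2% of all genes that rose, with a median of 0.18; the 5 were Fbl, Nhp2, Pes1, Rpf2 and Nob1. Of 14 mTORC1 pathway genes 3 rose and 5 fell (16.4% of all genes fell): Myc (1.45 ± 0.38), Pdcd4 (1.20 ± 0.21) and Eif4ebp1 (0.89 ± 0.34) rose, and Larp1, which binds TOP mRNAs, fell by 1.66 ± 0.40 (adjusted p = 0.0042) beside Rptor, Tsc1, Eif4g1 and Sesn1.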

How the data were processed

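Per the labels' protocols, total RNA from the infarct zone was isolated with a column kit including DNase digestion, mRNA was purified from it, and libraries were built with a NEBNext Ultra kit and sequenced on an Illumina HiSeq instrument. The submitters' processing notes name the aligner STAR 2.7.3a, the quantifier RSEM 1.3.1 and the build rn7. Neither annotation nor strandedness is given in the sources used here, so antisense and overlapping genes cannot be separated. The authors deposited expected counts (0.785% not whole, all rounded here) and TPM for 17085 genes in 16 libraries. The TPM of a library, as the authors deposited them, sum to a little less than the total that the unit implies, so other genes shared in it.

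Differences are from edgeR 4.0.16 in R 4.3.3: quasi-likelihood test, robust, TMM scaling, default filter by expression (11376 genes), all 16 libraries in 1 fit with 1 coefficient per group, and Benjamini-Hochberg adjustment over all tested genes; genes with an adjusted p under 0.05 are called. A common biological coefficient of variation of 0.403 was estimated. CPM and log2 CPM (prior count 2) use the TMM factors. Totals were 10940685 to 14456186 counts; any count carries counting error beside the spread between libraries. Whether the 4 libraries of a group are separate animals is not stated in the labels, so p-values measure the spread between samples, part of which may be technical. The method was run on simulated counts with known changes in genes drawn at random, which did not imitate a joint shift of a gene family.

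Alternatives were DESeq2 1.42.0, limma-voom (limma 3.58.1), 2 other scalings, no filter, limma on log2(TPM + 1), 1 row per identical set, a replicate block, and leaving out libraries. Core proteins, paralogs, S6 kinases and others were told apart by the form of the symbol. Genes named are the paralog pairs, the stalk, the S6 kinases, the highest and lowest 5 by TPM, the 5 called members with the largest difference each way, and rows with identical counts; the others named (Rps16, Rpl5, Rpl21, Rpl27, Rpl27a, Rpl28, Rpl30, Rpl32) were chosen after their values were seen. Values of some genes are not reported here, though counts over the family include the measured members. Members, lists and alternatives were all chosen with earlier results of these data known. Of the 114 names, 108 were current RefSeq symbols, 5 older ones and 1 neither; promoter windows are from RefSeq GRCr8, and no coordinates were converted.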

Additional observations from a re-analysis of the deposited data

Results flagged for a closer look

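In 76 groups of 4 libraries, the distance of the outermost library to its nearest neighbour was compared with the whole range of the group. They covered the 5 called members with the largest difference each way in each comparison, Rpl3 and Rpl3l. The family's share of TPM, its median level and the Rpl3l share of the pair were also screened. Other genes named in the text, Rpl30 among them, were not. Chance flags about 1 in 20 such groups. Of the 76, 3 were flagged, which is not more than that rate. Rplp1 was at 4.36 log2 CPM in MI 1, against 6.99 to 7.47 in the other MI libraries. Rplp1 was at 4.93 log2 CPM in MI_soft 4, against 4.37 to 4.44 in the other MI_soft libraries. Rpl9 was at 6.83 log2 CPM in Sham 2, against 5.80 to 5.97 in the other Sham libraries; both genes share all their counts with at least 1 other row.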

How the results depend on the processing

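The ranges of calls given next leave out the fit without the 4 libraries with fewest genes detected, which keeps 1 MI library. Against Sham, the members called stayed within 1.5 times of the reported number under the other alternatives for MI (65 to 72) and MI_soft (56 to 71). For MI_stiff against Sham, leaving out a library gave 17 to 39 and the other alternatives 26 to 51. The share of all genes called moved as well over the same fits. It was 28.1% to 43.7% for MI and 18.6% to 31.8% for MI_soft. For MI_stiff it was 14.6% to 27.9% when a library was left out and 15.8% to 26.1% under the others. The core median of MI against Sham was 1.05 without the 4 low-detection libraries (MI 2, MI 3, MI 4 and MI_soft 4). That of MI_stiff against Sham was 1.10 with library totals, 0.99 with totals without mitochondrial genes and 0.98 on log2(TPM + 1), settings that moved the median of all genes to 0.35, 0.25 and 0.22. Leaving out a library gave core medians of 1.36 to 1.58 (MI against Sham), 0.96 to 1.26 (MI_soft against Sham) and 0.67 to 0.83 (MI_stiff against Sham).

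In what follows, the share of all genes called under the same setting is given in brackets. For MI_stiff against MI the 11 members called (1.19%) became 29 with DESeq2 (5.12%) and 7 with limma-voom (0.756%). They became 2 with library totals (0.308%), 7 with no filter (0.575%), 4 on log2(TPM + 1) (0.993%) and 5 with the replicate block (0.299%). When a library was left out they became 0 to 32 (0.0953% to 10.9%). The core median was -0.28 without the low-detection libraries and -0.94 to -0.66 when a library was left out. For MI_soft against MI the 0 members (0.0264%) became 10 with DESeq2 (2.58%) and 0 to 16 when a library was left out (0% to 13.1%). The core median was -0.57 to -0.17 when a library was left out and -0.07 without the low-detection libraries. For MI_stiff against MI_soft the 0 became 16 with DESeq2, 9 without the low-detection libraries and 0 to 4 when a library was left out (median -0.52 to -0.22). Rplp1 in MI_stiff against MI reversed to 0.55 without the low-detection libraries. Alternative values were also counted for the called members with the largest differences in each comparison, Rplp1 included. Of 675 such values 556 kept direction and side of the threshold, 118 lost the call and 1 reversed. The causes were not tested.

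Libraries of the same replicate number did not stand out as alike. Over 24 same-numbered pairs the correlations of deviations from the group means were -0.285 to 0.176, with 5 over 0.1. Of 16 libraries 2 correlated best with their own number. Low correlations cannot exclude a pairing, for example by day or batch. With the replicate block 65, 64 and 26 members were called in MI, MI_soft and MI_stiff against Sham, 5 in MI_stiff against MI and 0 in the other 2 comparisons. The same fit called 33.3%, 22.6% and 18.3% of all genes against Sham and 0.299% in MI_stiff against MI. Short genes, shared copies and 4 libraries per group limit what single members show.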
